A study of Homo sapiens with 3 samples.

Results

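SOX4-only intergenic peaks near genes were 1503 of the 4513 peaks in a SOX4 binding profile of Hep3B cells, or 33.3% of that list and 38.8% of the 3873 SOX4 peaks that touched no STAT6 peak. They were chosen by the measured peak positions. A peak was included when it shared no base with a STAT6 peak, when its summit lay inside no annotated gene of any kind, and when the nearest end of a protein-coding gene was more than 3 kb and at most 500 kb from the summit. Distances between these limits, the absence of STAT6 overlap and the intergenic position were therefore set by the selection and are given as description. Fold enrichment, width and the identity of the neighbouring genes were not used directly to select them, but the rule bears on them. It left out the 640 SOX4 peaks that overlapped a STAT6 peak, of which 605 had a fold enrichment of at least 20. Genes with wide gaps around them can also be nearest to more peaks.

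Hep3B is an established human hepatocellular carcinoma line, and all libraries came from Hep3B cells in the same growth medium with no treatment or genetic change in the labels. The series held 3 libraries, made with an antibody against SOX4, an antibody against STAT6 or non-specific IgG, each with 1 library. Per the methods of the study, antibody-bound chromatin was released with CUT&RUN, in which micrococcal nuclease fused to protein A/G cuts beside the bound antibody, and was read as paired-end reads of 150 bp. SOX4-deleted Hep3B cells, which the methods also mention, were not analysed here, so no library in this comparison shows which peaks need SOX4. There was no replicate, so no p-value was computed, every interval covers counting error over peaks only, and the labelled cell type could not be checked against marker expression because binding alone was measured. The number of reads behind each peak list is unknown.

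SOX4 belongs to the SOX transcription factors, which hold DNA through a high-mobility-group box that enters the minor groove and bends the helix. SOX factors recognise short sites related to the core ACAAAG, and much of their binding in other cells lies in distal elements outside genes. In liver cancer SOX4 is known for links to epithelial-mesenchymal transition, Wnt and TGF-β signalling. The gene nearest to a distal element is only its neighbour on the chromosome, and no expression was measured here.

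The summits of 2 of these peaks lay 512 and 472 bp upstream of the start of a long non-coding RNA gene, and the peak reached into the window from 250 bases before to 50 bases after that start. These windows are shown because their sequence could be read from the RefSeq promoter table (GRCh38.p14). Both are printed 5′ to 3′ on the minus strand, with the bases inside the SOX4 peak in capitals. The window of LOC105370984 is chr15:94206841-94207140, has 249 of its bases in a peak with a fold enrichment of 7.20 and lies 24.0 kb from MCTP2. The window of LOC105375525 is chr7:137205350-137205649, has 290 of its bases in a peak with a fold enrichment of 8.57 and lies 21.5 kb from PTN, the gene of the growth factor pleiotrophin.
LOC105370984: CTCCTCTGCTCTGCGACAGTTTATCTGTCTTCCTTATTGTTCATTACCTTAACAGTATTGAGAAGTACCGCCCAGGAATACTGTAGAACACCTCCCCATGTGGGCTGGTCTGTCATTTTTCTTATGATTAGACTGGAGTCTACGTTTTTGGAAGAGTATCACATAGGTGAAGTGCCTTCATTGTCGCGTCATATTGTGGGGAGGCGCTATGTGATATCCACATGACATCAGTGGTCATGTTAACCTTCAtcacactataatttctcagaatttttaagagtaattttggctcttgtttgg
LOC105375525: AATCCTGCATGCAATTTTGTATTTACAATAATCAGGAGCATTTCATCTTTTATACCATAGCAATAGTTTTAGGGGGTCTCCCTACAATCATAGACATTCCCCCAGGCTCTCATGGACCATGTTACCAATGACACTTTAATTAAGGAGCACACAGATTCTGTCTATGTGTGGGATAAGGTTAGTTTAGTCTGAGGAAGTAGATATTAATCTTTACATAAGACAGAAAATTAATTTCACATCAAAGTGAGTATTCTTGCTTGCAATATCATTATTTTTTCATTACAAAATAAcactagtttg
Both windows were rich in A and T, with a GC content of 41.7% and 33.7% against a median of 58.7% over the 35116 promoter windows of the table. Neither held ACAAAG on either strand, whereas 5642 of all windows (16.1%) did. The wider SOX consensus, which is CAA preceded by any pair of A or T and followed by A or T and then G, overlaps that core and was found in 7168 of all windows (20.4%). It occurred once in the window of LOC105375525, as ATCAAAG inside the peak, and not in that of LOC105370984. A match is a description of the letters and not a site, and no match says only that these letters are not in the window.

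As a group, the intergenic SOX4-only peaks were modest in height. Their fold enrichment over IgG had a median of 5.10, with quartiles of 3.78 and 7.81 and a range from 1.50 to 55.9. The −log10 q had a median of 10.9, and quartiles of 5.20 and 25.5, and reached 667. Their median width was 795 bp, with quartiles of 549 and 1038 bp. Taller peaks were wider. The 40 peaks with a fold of at least 20 spanned 1039 to 2532 bp with a median of 1346 bp, and the 731 peaks with a fold under 5 had a median width of 541 bp. The correlation of fold and width was 0.858 (Spearman, over the 1503 peaks of 1 library, given as description).

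Tall peaks were a smaller share here than among SOX4-only peaks inside genes. A fold of at least 20 was given to 40 of them, or 2.66% (Wilson 95% interval 1.96% to 3.60%). Among the 1222 SOX4-only peaks with the summit in a protein-coding gene the share was 10.2% (8.65% to 12.1%), and among the 639 in another kind of gene it was 13.5% (11.0% to 16.3%). The 106 intergenic peaks within 3 kb of a protein-coding gene had a share of 8.49% (4.53% to 15.4%), and the 403 beyond 500 kb had 1.24% (0.531% to 2.87%). Medians stood closer together, at 5.10 for the intergenic peaks against 5.83, 5.65, 4.74 and 3.70 for these 4 classes in the same order. Peaks that overlapped a STAT6 peak were far taller, with a median fold of 95.5. A fold under 2 was rare between 3 and 500 kb, in 7 peaks (0.466%), and was given to 11.7% of the peaks beyond 500 kb. These differences lie within 1 library and were not tested.

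**Figure D1:**
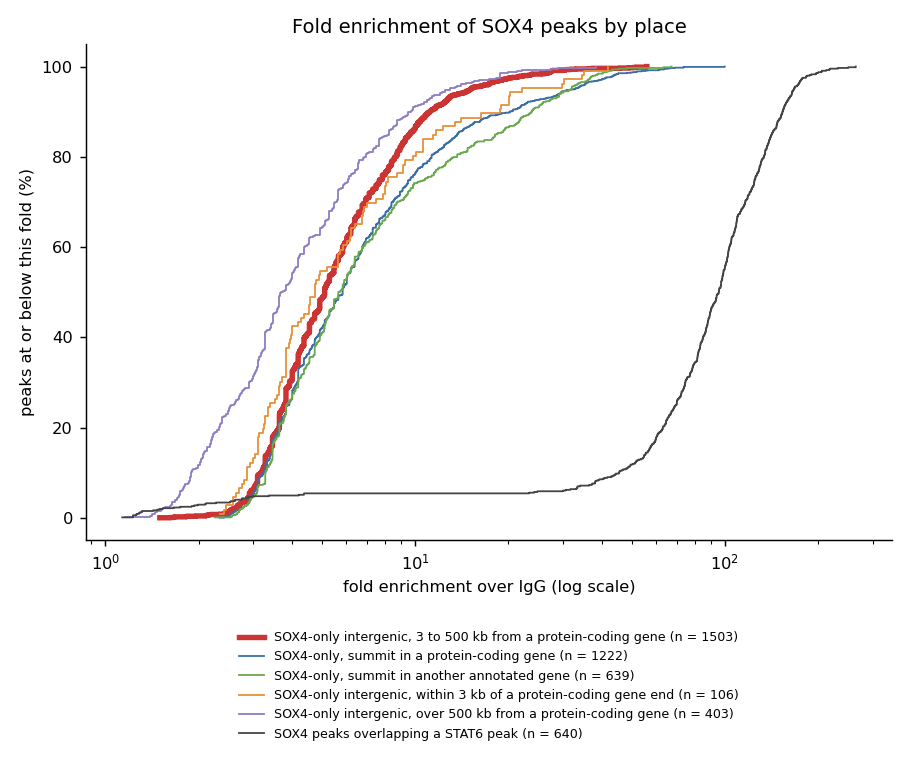
Cumulative share of SOX4 peaks (vertical axis, %) against fold enrichment over IgG (horizontal log axis) for 6 classes of position, with the intergenic SOX4-only peaks as the thick red line. The red line lies between the peaks inside genes and those beyond 500 kb, with a median of 5.10, and far left of the peaks that overlap STAT6, with a median of 95.5.

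The distance from summit to the nearest protein-coding gene end had a median of 55.1 kb, with quartiles of 18.2 and 172 kb. Within 50 kb lay 709 peaks, or 47.2%. To set this beside the room available, the sequence outside all genes and 3 to 500 kb from a protein-coding gene was counted exactly, and came to 958.6 Mb (eligible sequence). The 1503 peaks thus had a density of 1.57 per Mb (exact Poisson 95% interval 1.49 to 1.65). Density was 1.83 per Mb (1.59 to 2.10) at 3 to 10 kb, where 204 peaks lay, and 1.76 per Mb (1.61 to 1.92) at 10 to 50 kb, where 505 lay. It was 1.52 per Mb (1.34 to 1.73) at 50 to 100 kb with 240 peaks. The farther sequence held 1.35 per Mb (1.18 to 1.54) at 100 to 200 kb with 233 peaks, and 1.40 per Mb (1.25 to 1.56) at 200 to 500 kb with 321 peaks. The intervals of the 2 nearest classes did not meet those of the 2 farthest, while neighbouring classes overlapped. This separation was lost among peaks with a fold of at least 5, with 0.934 per Mb (0.763 to 1.13) at 3 to 10 kb and 0.754 (0.646 to 0.875) at 200 to 500 kb. The shares of peaks stood near the shares of sequence: 13.6% of peaks and 11.6% of sequence lay at 3 to 10 kb, and 21.4% of peaks and 23.9% of sequence at 200 to 500 kb.

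**Figure D2:**
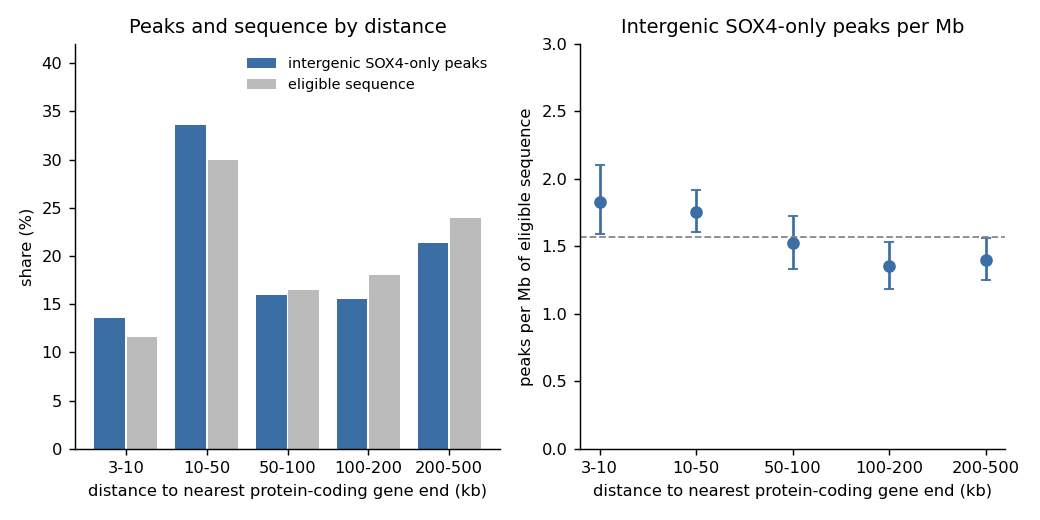
Left, the share of intergenic SOX4-only peaks (blue bars, %) and of eligible sequence (grey bars, %) in 5 classes of distance to the nearest protein-coding gene end (kb). Right, peaks per Mb of eligible sequence with exact Poisson 95% intervals and the density over all distances as a dashed line (1.57), showing 1.83 at 3 to 10 kb and 1.40 at 200 to 500 kb.

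Fold enrichment did not follow distance in the same way. The median fold was between 4.92 and 5.29 in all 5 distance classes. Tall peaks made up 5.88% of the 204 peaks at 3 to 10 kb (12 peaks, Wilson 95% interval 3.40% to 10.0%) and between 1.98% and 2.58% of the peaks in each of the 4 farther classes. All 4 farther intervals overlapped that of the nearest class, with upper limits of 3.61%, 4.78%, 5.50% and 4.43% by rising distance. The 12 include peaks near AMY1C, AMY1A and GSTT2B, genes with near-identical copies. At the lower limit the peaks just inside were those near CLDN10 (3.02 kb, fold 4.62), ZNF699 (3.02 kb, fold 6.33) and POLQ (3.04 kb, fold 10.9). Just outside lay POLR1F at 2.94 kb with a fold of 3.82 and MCUB at 2.99 kb with 9.12. At the upper limit the last included peaks lay near HTR2C (494 kb, fold 8.38), MMUT (496 kb, fold 3.23) and LOC112268044 (497 kb, fold 1.67), and the first left out were those of ZPLD1 (500.2 kb, fold 4.37), HAO1 (502 kb, fold 4.67) and EDEM1 (504 kb, fold 2.92).

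Upstream and downstream sides of genes were nearly even. Strand was known for the nearest gene of 1195 peaks. Of these, 637 lay upstream of the gene and 558 downstream, an upstream share of 53.3% (Wilson 95% interval 50.5% to 56.1%). Per eligible sequence this was 1.63 per Mb upstream (1.50 to 1.76) and 1.55 per Mb downstream (1.43 to 1.69), intervals that overlap. Both sides had a median fold of 5.10, and their median distances were 54.5 and 56.0 kb.

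The peaks were spread over all chromosomes. Chromosome 19 had the highest density, 2.82 per Mb of eligible sequence (1.99 to 3.89, 37 peaks), with a median distance to genes of 10.1 kb. Chromosomes 4 (2.04, 1.70 to 2.42, 128 peaks) and 3 (1.95, 1.61 to 2.34, 114 peaks) followed, and their intervals overlapped that of chromosome 19. Chromosome 16 had the lowest density at 0.735 per Mb (0.436 to 1.16, 18 peaks), followed by chromosome 18 at 1.10 (0.744 to 1.57, 30 peaks) and chromosome 9 at 1.14 (0.837 to 1.51, 47 peaks). Assembly gaps were not taken out of the eligible sequence. Chromosome X had 113 peaks and 1.50 per Mb, none with a fold of at least 20, and 3 of the 15 peaks on Y reached that fold.

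**Figure D3:**
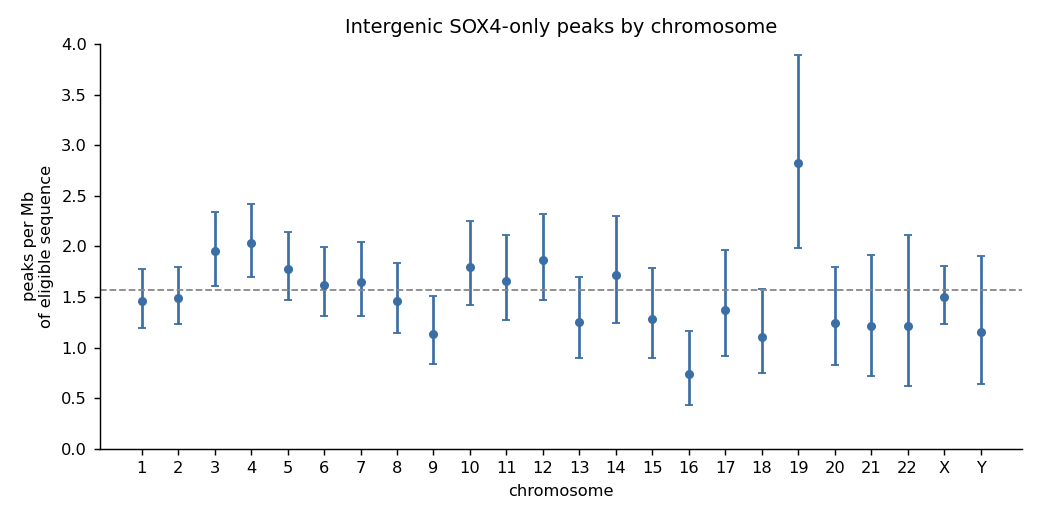
Intergenic SOX4-only peaks per Mb of eligible sequence (vertical axis) on each chromosome (horizontal axis), with exact Poisson 95% intervals and the density over the genome as a dashed line. Chromosome 19 stands highest at 2.82 and chromosome 16 lowest at 0.735.

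Most peaks had no other intergenic SOX4-only peak within 100 kb. The nearest other intergenic SOX4-only peak was a median of 490 kb away, 363 peaks (24.2%) had one within 100 kb and 112 (7.45%) within 10 kb. The spacing that evenly spread peaks would have was not computed, so these values do not show whether the peaks are clustered or isolated. The group with the most peaks had 5 in 155 kb beside SELENOP, the gene of the plasma selenium carrier, on chr5:42819054-42974077, with folds from 3.24 to 7.42. A group of 4 beside CUL2, a scaffold of cullin ubiquitin ligases, covered 29.6 kb on chr10:34922143-34951706 with folds from 2.87 to 10.2. A further 4 lay in 203 kb among the pregnancy-specific glycoprotein genes PSG1, PSG7, PSG11 and PSG2 on chr19:42884244-43087545 with folds from 3.35 to 5.64. The PSG genes are close copies of each other, and how reads with several matching positions were treated is not stated in the sources used here, so the number of separate peaks there is uncertain. These groups were chosen after their values were seen.

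The 1503 peaks had 1228 different nearest protein-coding genes, 6.13% of the 20037 genes considered. Of these genes, 1005 were nearest to 1 peak, 184 to 2, 30 to 3, 6 to 4, 2 to 5 and 1 to 6. These genes had more empty sequence around them. The eligible sequence closest to a gene had a median of 137 kb for these 1228 genes and 8.16 kb for the other genes. ANKRD30A, a breast differentiation antigen gene with near-identical relatives, was nearest to 6 peaks with folds of 3.83 to 7.11. DPP10, whose product is a partner of Kv4 potassium channels, had 5 with folds of 4.04 to 6.50. NRG3, a ligand of the receptor ERBB4, had 4 with folds of 4.56 to 11.6, and SPIN4, a histone reader gene on chromosome X, had 4 with folds of 6.20 to 8.02. DCUN1D4, a neddylation factor gene, had 5, of which 4 lay in 189 kb on chr4:51445481-51634656 with low folds of 1.83 to 2.18 and the fifth, on the other side of the gene, had 5.62. Those 4 low peaks lay 199 to 388 kb from DCUN1D4, in a stretch of 2772 kb without protein-coding genes. STAT6 summits lay 5.22 to 51.2 kb from them, against a median of 5549 kb over all intergenic SOX4-only peaks. Whether peak calls in that stretch are reliable was not tested.

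Nearest genes were asked for further SOX4 binding of their own. A SOX4 summit in the gene body or the 3 kb on either side was found for 155 of the 1228 genes (12.6%, Wilson 95% interval 10.9% to 14.6%), against 6.74% of all 20037 protein-coding genes. These genes were longer, with a median of 50.2 kb against 23.3 kb for genes not nearest to any of the peaks. Per Mb of body and flanks the figures were 1.52 summits (exact Poisson 95% interval 1.35 to 1.72) and 1.44 (1.38 to 1.51), so that the intervals overlapped once length was counted. A summit of a SOX4 peak shared with STAT6 lay in 20 of the nearest genes (1.63%, 1.06% to 2.50%), against 1.05% of all protein-coding genes.

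The tallest intergenic SOX4-only peaks lay beside genes of different functions. First came a peak 410 kb from NUDT12, the gene of a NAD(H)-cleaving hydrolase, on chr5:103972334-103973748 with a fold of 55.9. The next was 126 kb upstream of GUCY1A2, a subunit of the nitric oxide receptor guanylyl cyclase, on chr11:107144039-107145439 with a fold of 55.5. ROBO1, a receptor of SLIT guidance proteins, had a peak 450 kb upstream on chr3:80216921-80218311 with a fold of 50.5, and that summit lay 349 bp from the pseudogene HNRNPA3P8. HLA-DRA, the α chain of an MHC class II molecule, was 28.4 kb from a peak on chr6:32472701-32474178 with a fold of 48.8 and the highest −log10 q of all, 667. Distances from 11.9 to 450 kb stood among the 5 tallest, which are too few to relate height to distance. Over the 40 peaks with a fold of at least 20 the median distance was 39.0 kb, against 55.65 kb for the other peaks. ZNF33B, a zinc finger gene (196 kb, fold 36.3), and SCGB1D4, a secretoglobin gene (9.48 kb, fold 33.0), were the eighth and ninth by fold. The ZNF33B peak was 2532 bp wide and lay in a stretch of 4424 kb without protein-coding genes.

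Genes of drug and xenobiotic handling in the liver were among the neighbours of tall peaks. SLCO1B1, the hepatocyte uptake transporter of bilirubin and statins, had a peak 11.9 kb downstream on chr12:21251035-21252486 with a fold of 51.6, and one 14.6 kb upstream with a fold of 2.86. The taller peak lay in a gap of 24.8 kb between protein-coding genes, so the next gene was about as near. Its summit was 1170 bp from the long non-coding RNA gene LOC124902895 and 12.1 kb from a STAT6 summit. Among the cytochrome P450 genes, whose enzymes oxidise drugs and lipids, CYP3A43 (3.80 kb, fold 27.5) and CYP4F12 (3.57 kb, fold 26.2) had tall peaks. CYP2C8 had a peak with a fold of 3.46 at 8.91 kb. STAT6 summits lay 3.87, 5.27 and 9.14 kb from these peaks, in the same order. Of the 56 cytochrome P450 genes, 6 (10.7%) were nearest to 7 peaks, 3 of them with a fold of at least 20. Their density was 4.37 per Mb of the eligible sequence closest to these genes (1.76 to 9.01), against 1.57 over all genes. The list was chosen with earlier results of these data known and some of these genes are close copies, so that reads could be shared between sites. GSTT2B, a glutathione S-transferase gene with a near-identical copy next to it, was 5.25 kb from a peak with a fold of 30.1.

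Peaks near multi-copy genes formed another share of the tall ones. AMY1C and AMY1A, near-identical salivary amylase genes, had peaks 7.55 and 7.52 kb upstream with folds of 45.7 and 23.5 on chromosome 1. On chromosome Y, 3 peaks nearest to TSPY10 and TSPY2, of a testis-specific repeated family, had folds of 31.7, 30.6 and 30.4, and their summits lay 51, 6 and 46 bp from the pseudogenes TSPY18P, TSPY16P and TSPY19P. Fold values at such repeated genes are uncertain because reads can match several copies.

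Nearest gene ends of any kind were mostly not protein-coding. This held for 1098 peaks (73.1%), among them 556 with a long non-coding RNA gene and 473 with a pseudogene as the nearest, and the median distance to any gene end was 15.8 kb. The rule kept protein-coding ends more than 3 kb away, and only 20037 of the 59716 genes considered were protein-coding. The same share over the eligible sequence was not counted, so these counts have no background. Within 1 kb of a gene that is not protein-coding lay 83 summits, or 5.52% (Wilson 95% interval 4.48% to 6.80%), against 3.36% of the eligible sequence. Of the 40 tall peaks 14 did so (35.0%, 22.1% to 50.5%), against 69 of the 1463 lower peaks (4.72%, 3.74% to 5.93%). Pseudogenes accounted for 10 of the 14. Over all heights, 39 peaks lay within 1 kb of a pseudogene, with a median fold of 6.20, and 37 within 1 kb of a long non-coding RNA gene, with a median of 4.92. The median over the 1420 peaks farther than 1 kb from every gene was 5.10.

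Among the pseudogenes at hand were copies of HNRNPA1, which encodes an abundant RNA-binding protein. The eligible sequence beside such copies was not counted, so the number of peaks there has no background. Fold values at such copies are uncertain because reads can match several of them. A summit lay 18 to 326 bp outside such a copy in 6 intergenic SOX4-only peaks, with a median fold of 19.9. The folds were 27.4 at HNRNPA1P52, 20.6 at HNRNPA1P63, 20.1 at HNRNPA1P32, 19.8 at HNRNPA1P58, 14.9 at HNRNPA1P28 and 6.50 at HNRNPA1P23. The protein-coding genes named for these sites by distance were LYPD4, ACOT11, MAP3K8, NRSN1, PGRMC1 and CSTA, at 3.89 to 124 kb. These 6 peaks counted as intergenic since the summit fell outside the annotated copy, and they were chosen after their values were seen.

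**Figure D4:**
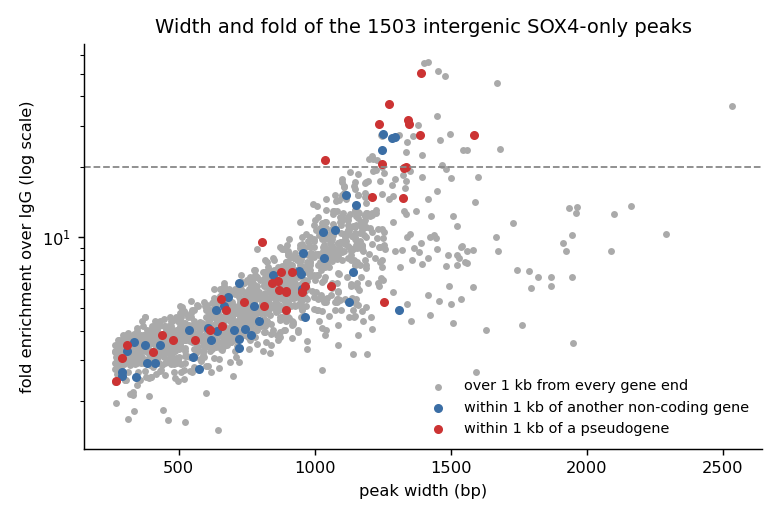
Fold enrichment over IgG (vertical log axis) against width (horizontal axis, bp) for the 1503 intergenic SOX4-only peaks, coloured by whether the summit lay within 1 kb of a pseudogene (red), within 1 kb of another non-coding gene (blue) or farther from every gene end (grey). Above the dashed line at a fold of 20 stand 40 peaks, of which 10 are red, and no peak there is narrower than 1039 bp.

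Although no intergenic SOX4-only peak overlapped a STAT6 peak, a few had one close by. A STAT6 summit lay within 10 kb of 9 peaks (0.599%) and within 100 kb of 44 (2.93%). The share of eligible sequence that close to a STAT6 summit was not counted, so these counts have no background. Among the 9 were peaks near CES1, LOC105375012, CYP3A43, DCUN1D4, CYP4F12, MICA, KCNK1 and CYP2C8, named here after their values were seen. The closest was beside CES1, a liver carboxylesterase gene, where the STAT6 summit was 1.95 kb away and the SOX4 peak had a fold of 8.93. Of these 9 peaks, 4 had a fold of at least 20, which is 10.0% of the 40 tall peaks (3.96% to 23.1%), and the other 5 were 0.342% of the 1463 lower peaks (0.146% to 0.798%). The SOX4 and STAT6 lists share their IgG control, and the part of that control in this proximity was not tested.

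Gene groups of the folate pathway, IL-4 signalling and the SOX, Wnt and TGF-β families were looked up among the nearest genes, beside the 6.13% of all genes. In folate one-carbon metabolism, which supplies methyl groups and nucleotide precursors, 3 of 27 genes (11.1%) were nearest to 1 peak each. MTR, methionine synthase, had a peak 8.48 kb upstream on chr1:236786291-236787351 with a fold of 8.64. MTHFD1, the cytosolic trifunctional folate enzyme, had one 24.7 kb upstream on chr14:64363211-64364137 with a fold of 8.57. The peak of MTRR, which reactivates methionine synthase, was lower, with a fold of 2.77 at 60.6 kb. The density next to these genes, 4.19 per Mb, had an interval from 0.864 to 12.2 that includes the 1.57 of all genes. In the IL-4 and JAK-STAT group 1 of 26 genes was nearest to a peak, namely IL13RA1, a receptor chain for IL-13 and IL-4, with a fold of 3.83 at 14.0 kb upstream.

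SOX genes were nearest to peaks in 4 of 20 cases. SOX3, which acts in neural and pituitary development, had 2 peaks 55.7 and 80.4 kb upstream with folds of 5.47 and 6.56. SOX14 had the tallest of the family, a fold of 11.1 at 105 kb, while SOX11, of the same subgroup as SOX4, had 4.01 at 190 kb and SOX5 had 3.83 at 312 kb. Counted per eligible sequence, the family's 5 peaks gave 1.15 per Mb (0.374 to 2.69) beside the 1.57 of all genes, since 4.34 Mb of eligible sequence lay closest to these 20 genes.

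In the Wnt pathway 4 of 61 genes (6.56%) were nearest to 6 peaks. The secreted antagonist DKK1 had a peak 30.9 kb downstream with a fold of 12.2, and its relative DKK2 had 3, with folds of 17.4, 3.46 and 3.23 at 216, 192 and 37.6 kb. CTNNB1, which encodes the transducer β-catenin, had one 266 kb upstream with a fold of 7.84, and the ligand gene WNT5B had one with 5.83. In the TGF-β and BMP group 5 of 38 genes (13.2%) were nearest to 7 peaks. The ligand gene TGFB2 had a fold of 4.69, the transducer gene SMAD2 had 6.38 and the receptor gene ACVR2A had 4.55. BMP2 and BMP5, both ligand genes, had 2 peaks each with folds from 2.98 to 5.49. The density was 1.71 per Mb (0.626 to 3.71) for Wnt and 1.67 (0.670 to 3.43) for TGF-β and BMP, and both intervals include the 1.57 of all genes.

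For epithelial-mesenchymal transition, stemness and chromatin, 5 of 31 genes (16.1%) were nearest to a peak. Counted per eligible sequence, the density next to this group was 1.47 per Mb (0.478 to 3.44), an interval that includes the 1.57 of all genes. VIM, the mesenchymal filament vimentin, had a peak 10.2 kb downstream on chr10:17247150-17248284 with a fold of 8.77, and CDH2, N-cadherin, had one 322 kb upstream with a fold of 9.66. POU5F1, the pluripotency factor OCT4, had a fold of 7.12 at 15.9 kb, with that summit 233 bp from PSORS1C3. SMARCA2, an ATPase of SWI/SNF remodelling complexes, had 7.29 at 121 kb, and PROM1, the stem cell surface protein CD133, had 3.73 at 12.0 kb. Of 35 hepatocyte genes, 2 (5.71%) were nearest to a peak. NR5A2, a nuclear receptor of bile acid and cholesterol genes, had 5.32 at 253 kb, and APOH, a plasma glycoprotein gene, had 3.78 at 30.0 kb. The density next to the hepatocyte genes was 0.816 per Mb (0.0988 to 2.95), an interval that also includes 1.57.

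Cadherins and protocadherins were often nearest, 15 of 89 genes (16.9%) with 24 peaks, and with 15.9 Mb of eligible sequence closest to them their density was 1.51 per Mb (0.965 to 2.24), while their tallest peaks were near CDH4 (fold 14.4) and PCDH18 (fold 11.3). ZNF zinc finger genes were nearest in 32 of 517 cases (6.19%) with 2.22 peaks per Mb (1.58 to 3.03). Solute carriers, 23 of 398 genes, had 1.95 per Mb (1.29 to 2.84), and olfactory receptors, 17 of 392 genes, had 1.84 (1.11 to 2.88), with the tallest near OR10AG1 (fold 27.3). The OR10AG1 summit lay 395 bp from the pseudogene OR10AK1P. Potassium channel genes, 8 of 96, had 1.30 per Mb (0.690 to 2.22), with the tallest peak 8.73 kb upstream of KCNK1, a leak channel gene, at a fold of 27.4. Forkhead genes were low, with FOXC1 (fold 6.11) the single neighbour among 52 genes and 0.205 peaks per Mb (0.00518 to 1.14). HOX genes had 1 neighbour among 40, and 3.99 peaks per Mb (0.101 to 22.2). ABC transporters (4 of 46 genes, 3.26 per Mb, 0.889 to 8.35) and histone genes (4 of 79, 4.04 per Mb, 1.10 to 10.3) rested on few peaks. Over the 17 groups the interval lay wholly above 1.57 for cytochrome P450 genes and, by a narrow margin, for ZNF genes, and wholly below it for forkhead genes, and no adjustment was made for the number of groups.

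**Figure D5:**
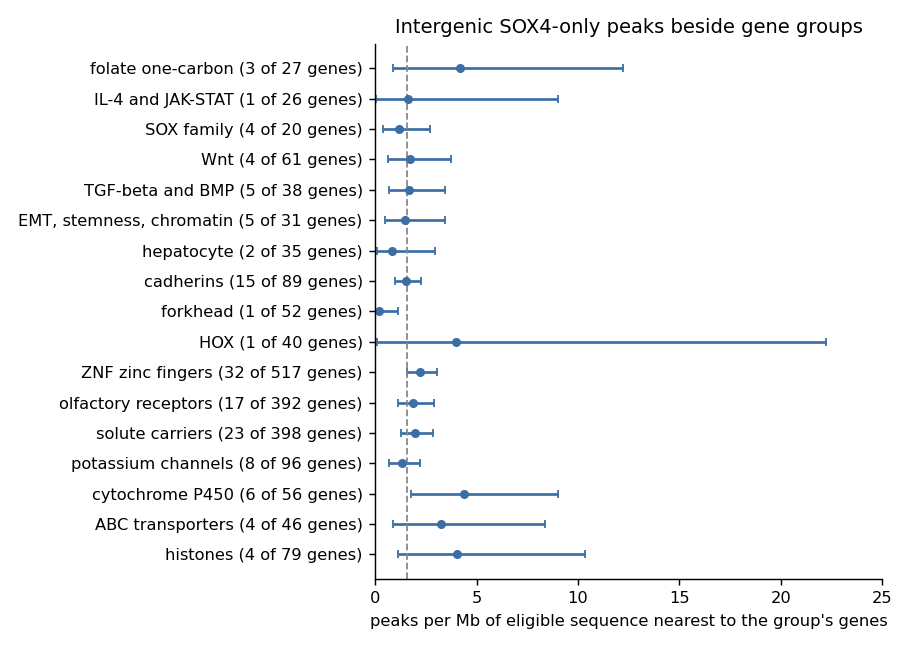
Intergenic SOX4-only peaks per Mb of the eligible sequence nearest to each group's genes (horizontal axis), with exact Poisson 95% intervals, for 17 gene groups (vertical axis, with the number of genes nearest to a peak). The dashed line is the density over all genes (1.57), and the cytochrome P450 genes, at 4.37, lie above it with a wide interval.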

How the data were processed

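The deposited files were the SOX4 and STAT6 peak lists, which the authors called against the IgG library. The authors deposited for each peak a fold enrichment over IgG (a ratio), a −log10 p and a −log10 q, and a display score that restates the −log10 q and was not used. BWA, Partek and hg38 appear in the submitters' processing notes. Per the study, peaks were called in Partek Flow. The calling algorithm, its threshold and the treatment of reads matching several positions are not given in the sources used here. The lowest deposited SOX4 −log10 q was 1.31.

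Peaks were set beside 59716 RefSeq genes (GRCh38.p14), of which 20037 were protein-coding. Positions are 1-based, overlap means at least 1 bp, and distance runs from the summit to the nearest gene end. Strand came from the promoter table. Shares have Wilson and densities exact Poisson 95% intervals, for counting error only. The peaks, gene lists and rules were chosen with earlier results of these data known. Genes were named for the 10 highest folds and the 10 highest −log10 q, the 5 genes nearest to the most peaks, the 3 peaks nearest each distance limit, all nearest genes of the 7 pathway lists (folate, IL-4 and JAK-STAT, SOX, Wnt, TGF-β and BMP, transition and chromatin, hepatocyte) and the highest 2 per family. Some genes of this rule are not reported here. The close groups, peaks beside pseudogenes and peaks beside STAT6 summits were chosen after their values were seen. The selection was tested on simulated data. No genome was used, so motifs in peaks were not analysed here. Python 3.11.15, numpy 2.4.6, pandas 2.3.3, scipy 1.17.1 and matplotlib 3.10.9 were used.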

Additional observations from a re-analysis of the deposited data

How the results depend on the processing

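No paired analysis was possible because there was 1 library per antibody. Of 64 alternative values, 44 stayed within a set band of the value reported and 20 moved. The band was 1.5 times for the numbers of peaks and genes and the 95% interval for shares, medians and densities. Thresholds were applied to both lists. With a fold enrichment of at least 5 the number of peaks was 775, the distinct nearest genes 703, the median fold 7.65, the median width 1014 bp and the share of nearest genes with a further SOX4 peak 9.39%. At −log10 q of 5 or more the median fold was 6.05 and the median width 903 bp, with 1139 peaks and 980 genes, which are within the band. A limit of 100 kb left 949 peaks with a median distance of 24.3 kb and 74.7% within 50 kb. Each of these limits keeps a subset by fold, −log10 q or distance, and the values describe that subset. Densities at 3 to 10, 10 to 50, 50 to 100, 100 to 200 and 200 to 500 kb were 1.41, 1.36, 1.10, 1.04 and 1.04 per Mb at −log10 q of 5 or more, and 0.934, 0.870, 0.793, 0.713 and 0.754 with a fold of at least 5. At −log10 q of 5 or more the interval at 3 to 10 kb (1.20 to 1.65) touched that at 100 to 200 kb (0.891 to 1.20), and with a fold of at least 5 the nearest and farthest intervals overlapped. Counting only stretches of at most 1 Mb between protein-coding genes, an alternative chosen after seeing the data, gave 1.85, 1.79, 1.57, 1.24 and 1.33. Leaving out Y, asking for the whole peak outside genes, ignoring small genes and pseudogenes, or keeping STAT6 peaks 1000 bp away moved no value beyond the band. The share of peaks with a SOX motif was not run, for want of sequence. Depth per library is unknown, so a low fold cannot be told from few reads.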

Other observations

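The fold values of the intergenic SOX4-only peaks came in 2 kinds. In 747 of them (49.7%), with a median of 5.47, the fold lay within 0.0005 of a whole multiple of a fixed step. That step was fitted to the folds of all SOX4 peaks. It is 0.1822 when rounded, and the unrounded value was used. The other 756 lay between these steps with a median of 4.83, among them all 7 peaks with a fold under 2 and the 4 low peaks beside DCUN1D4. The share on the steps was 46.5% among SOX4-only peaks in protein-coding genes and 33.7% among those over 500 kb from one. What sets a fold on or off a step was not tested.

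Of the 40 tall peaks, 4 more are named here, picked after their values were seen and sharing no list. FBXW7, a substrate receptor of ubiquitin ligases, had a peak 3.47 kb upstream with a fold of 27.7, and STC2, a secreted glycoprotein gene, had one 18.5 kb upstream with a fold of 26.6. Non-coding genes lay closer to both summits, the long non-coding RNA gene MIR4453HG at 301 bp and the microRNA gene MIR8056 at 552 bp, in the same order. PIK3R1, the regulatory subunit of PI3-kinase, had a fold of 21.6 at 170 kb, and SP3, a zinc finger transcription factor gene, had 21.3 at 41.5 kb.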
